A study of Rattus norvegicus with 144 samples.

Results

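Blood RNA of the rats that received vehicle alone was used to ask how far gene expression differs between animals that had the same treatment. The vehicle rats were chosen by matching the animal number of each array to the deposited dose key and taking dose 0, which gave 18 rats on 36 of the 144 arrays of a study of 72 rats. They were male F344/N rats aged 10 to 12 weeks, gavaged with ethyl cellulose at 0.5% as a pair of doses, and 6 each were killed after 3, 6 or 24 h. The other 54 rats received acetaminophen (APAP), an analgesic that harms the liver in overdose, in the same vehicle at 150, 1500 or 2000 mg/kg. Each rat was hybridised on 2 arrays of 2 colours with the dyes exchanged, against RNA pooled in equal amounts from 6 vehicle animals of the same time. The labels do not say whether those 6 were the same 6 rats measured singly. All values below are log2 of rat over pool, the mean of a rat's 2 arrays, and the direction rests on reading the deposited values as log10 of Cy5 over Cy3, which is likely and not stated. The pool differs between times, so a rat is compared with rats of its own time and not with those of another.

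Whole blood is a mixture of cells. Neutrophils and monocytes carry genes of killing and inflammation, lymphocytes carry antigen receptors and their signalling proteins, platelets and reticulocytes hold RNA left from their nucleated parents. Transcript levels in blood are known to follow the proportions of these cells, the time of day, stress hormones and exposure to infection, and interferon-stimulated genes are known to rise and fall as a block. In bulk blood, fewer cells of a type and less RNA per cell cannot be told apart. The ratios give no level, so the label blood could not be checked against the height of its markers.

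The 2 arrays of a rat did not resemble each other over all features. The mean of each time and dye was taken off, and 14775, 14565 and 14177 features were used at 3, 6 and 24 h. The correlation between a rat's Cy5 and turned Cy3 arrays then ran from -0.12 to 0.41 with a median of 0.03. In 3 of 18 rats (3482, 6370 and 3565) it was higher than with any array of another rat of that time. Next, the 3424 features that varied between rats at both 1500 and 2000 mg/kg were taken. Vehicle arrays entered that choice only through the need for enough values in the vehicle rats. Over 3422 of them at 3 and 6 h and 3418 at 24 h, the correlation ran from 0.29 to 0.84 with a median of 0.56. There 15 of 18 rats matched their own array best, and rats 4101, 6749 and 2507 did not. Differences between rats were therefore tested gene by gene, by setting the spread of the 6 rat means against the spread between a rat's 2 arrays.

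**Figure D1:**
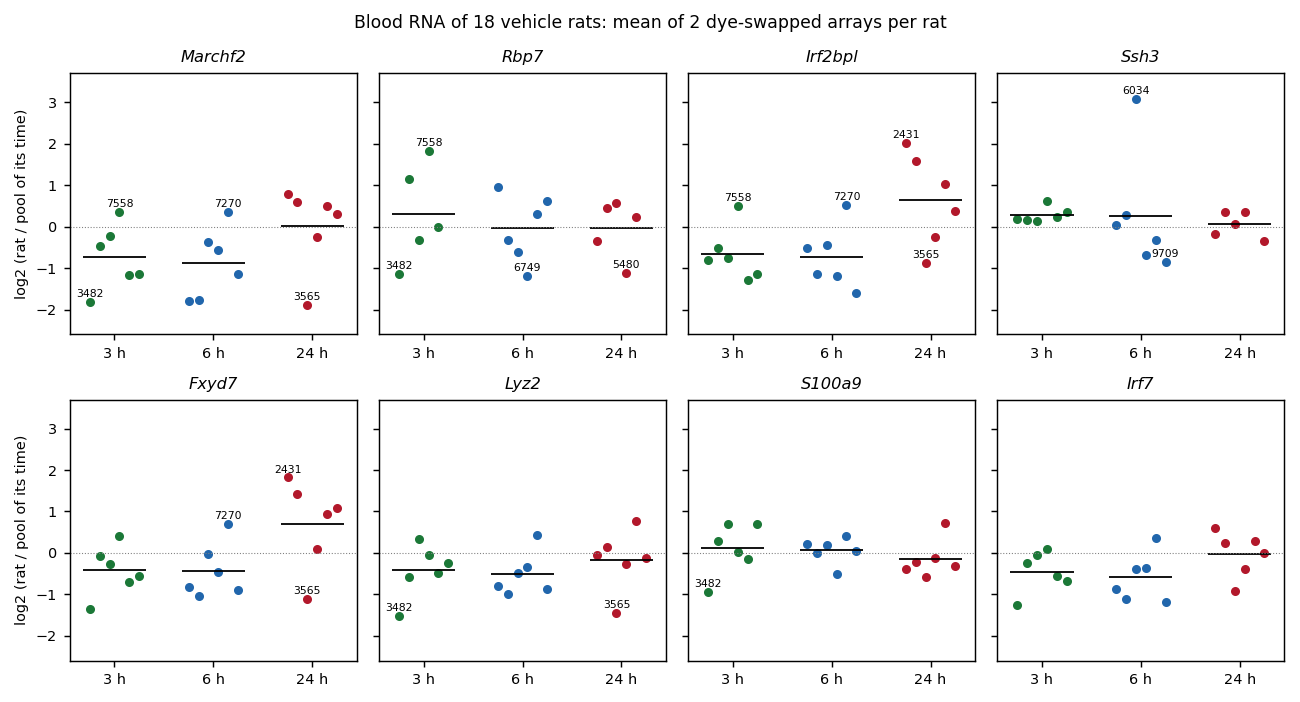
Each panel is a gene, each point a vehicle rat (mean of its 2 arrays, log2 of rat over pool, vertical axis), grouped by time, and the bar is the mean of the rats of that time; rats over 1 log2 unit from it are numbered. Marchf2 is lowest in rat 3482 at 3 h (-1.81) and in rat 3565 at 24 h (-1.89), and Ssh3 is high in rat 6034 alone (3.08).

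Of 15366 features tested over the 3 times together, 2981 varied between rats (19.4%, adjusted p under 0.05, moderated F test with limma's variance shrinkage), among them 1758 of 8646 named genes. The between-rat standard deviation (SD), which is the spread left after the error between a rat's arrays is taken off, had a median of 0.08 on the log2 scale over the features tested, against an error SD of 0.15 for a rat's mean. Over the 1758 named genes it ran from 0.06 to 0.87 with a median of 0.17. It was over 0.25 in 467 of them and over 0.5 in 42. Most named genes that passed therefore differed little between vehicle rats, and a short tail differed widely.

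Marchf2, a membrane-bound ubiquitin ligase, had the largest between-rat SD of any named gene past the threshold, 0.87 or 1.82-fold (F = 38.8, adjusted p = 6.02e-07). At 3 h its log2 ratio ran from -1.81 in rat 3482 through a median of -0.80 to 0.36 in rat 7558. At 6 h it ran from -1.80 in rat 3273 through -0.86 to 0.35 in rat 7270. At 24 h it ran from -1.89 in rat 3565 through 0.39 to 0.79 in rat 2431, where rat 3565 stood alone below the other 5. Without rat 3565 its SD was 0.70.

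Irf2bpl, a nuclear protein named for its likeness to proteins that bind interferon regulatory factor 2, had an SD of 0.84 (F = 26.6, adjusted p = 3.12e-06). At 24 h its ratio ran from -0.88 in rat 3565 through a median of 0.70 to 2.01 in rat 2431. At 3 h it ran from -1.28 to 0.51, with rat 7558 highest, and at 6 h from -1.60 to 0.53, with rat 7270 highest. Fxyd7, a regulator of the sodium pump known from brain, had an SD of 0.78 and was lowest in rat 3482 at 3 h (-1.34), in rat 4101 at 6 h (-1.05) and in rat 3565 at 24 h (-1.12). Its highest values were in rats 7558 (0.40), 7270 (0.70) and 2431 (1.82).

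Lyz2, the lysozyme of monocytes, macrophages and granulocytes, was the most securely variable of the 20 named genes with the largest SD (F = 71.6, adjusted p = 6.76e-08). Its SD was 0.63. At 3 h it ran from -1.52 in rat 3482 to 0.34 in rat 6370, at 6 h from -0.99 in rat 4101 to 0.43 in rat 7270, and at 24 h from -1.45 in rat 3565 to 0.77 in rat 7067. Its 2 probes gave values that correlated at 0.82 over the 18 rats.

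Rbp7, a retinol-binding protein, varied with an SD of 0.84, and on a large array error (0.37 for a rat's mean, F = 6.83, adjusted p = 0.00516, 16 rats). It was lowest in rat 3482 (-1.14) and highest in rat 7558 (1.82) at 3 h, and it did not follow the pattern of Marchf2 at 24 h, when rat 3565 was highest (0.58). Ssh3, a phosphatase of the actin regulator cofilin, owed its SD of 0.82 to 1 animal. Rat 6034 stood at 3.08 at 6 h, where the other 5 rats lay between -0.85 and 0.27, and without it the SD was 0.09. On its Cy5 and Cy3 arrays it stood 2.33 and 3.32 above the mean of the time.

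The other members of the 20 were Akr1b1 (aldose reductase, SD 0.70), Ybx1 (a cold-shock RNA-binding protein, 0.68), Polr2b (a large subunit of RNA polymerase II, 0.68), Actr3 (of the actin-branching Arp2/3 complex, 0.67), Ltb (lymphotoxin beta, 0.65), Rpl4 (a ribosomal protein, 0.62), Akirin2 (a nuclear protein, 0.59) and Birc3 (an inhibitor of apoptosis, 0.58), with C13h2orf76 (0.75), Faxc (0.66), Abcc10 (a drug transporter, 0.64), Sox15 (a transcription factor, 0.63), Clca4l (0.62) and Ldhc (a testis lactate dehydrogenase, 0.59). Rat 3565 was the lowest of all 18 rats, relative to the mean of its time, in 13 of the 20 genes and the highest in Polr2b. Leaving out 1 rat lowered these SDs at most to 0.44, in Sox15, apart from Ssh3.

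**Figure D2:**
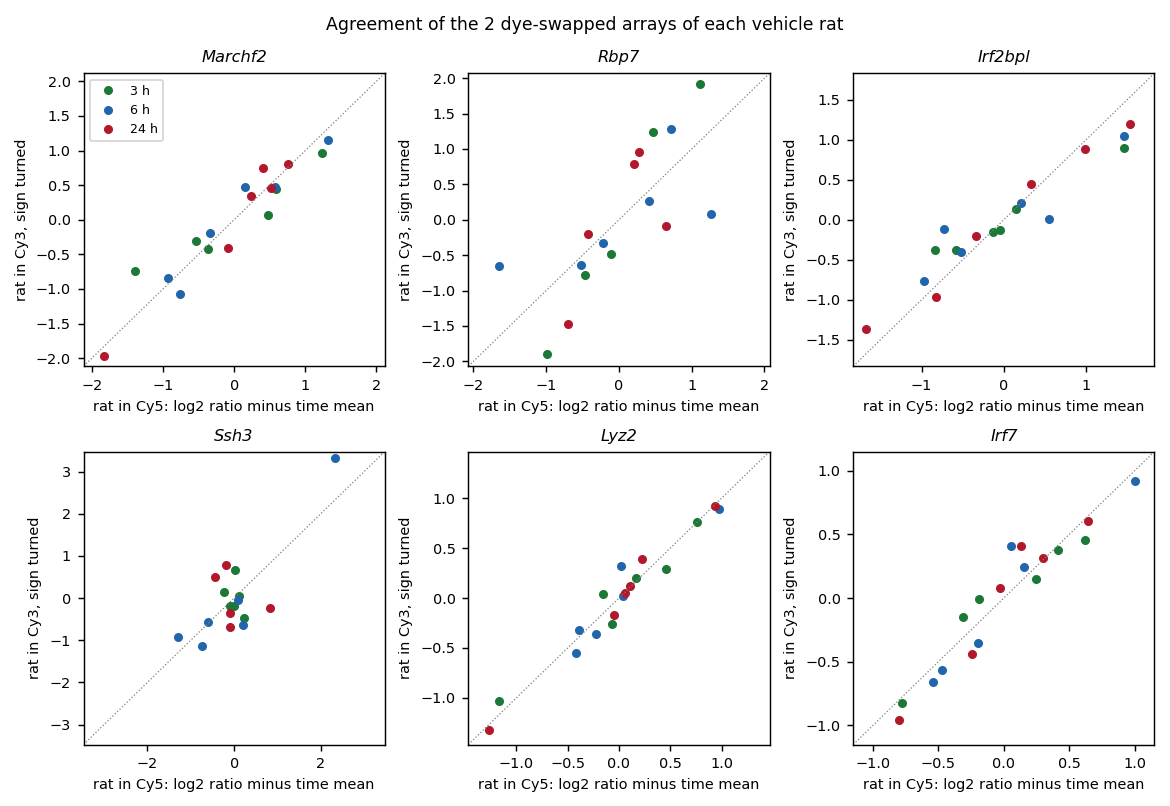
Each point is a vehicle rat; the horizontal axis is its log2 ratio on the array where it was in Cy5 and the vertical axis that on the array where it was in Cy3, sign turned, both minus the mean of the time. Points lie along the dotted line of equality for Marchf2, Irf2bpl, Lyz2 and Irf7 (r of 0.95, 0.96, 0.97 and 0.95), and more loosely for Rbp7 (0.75). For Ssh3 (0.77) rat 6034 stands far from the other rats, at 2.335 in Cy5 and 3.324 in Cy3.

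Within a single time the test has 6 rats and rested on less. At 24 h 699 features varied (4.55%), 450 of them named. The 6 named genes past the threshold with the largest spread over the 6 rats were Irf2bpl (SD of the 6 rats 1.10, adjusted p = 0.00935), Fxyd7 (1.06), C13h2orf76 (1.05), Marchf2 (0.99), Polr2b (0.97) and Faxc (0.96). In 5 of them rat 3565 was lowest and rat 2431 highest, and in Polr2b rat 3565 was highest (1.89). The count at 24 h fell to 0 without rat 3565, to 33 without rat 7067, to 164 without rat 2431, to 289 without rat 2507 and to 316 without rat 8002, and was 794 without rat 5480.

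At 3 h and at 6 h no feature passed (0% of 15366 at each), and 2882 and 2019 had an unadjusted p under 0.05. A plain F test without shrinkage called 6 at 3 h and 0 at 6 h, features complete in all 6 rats gave 55 at 3 h, and arrays centred and scaled gave 24 at 6 h. Nearest to passing at 3 h were S100a9, a subunit of the neutrophil protein calprotectin (-0.94 in rat 3482 to 0.71 in rat 8691, adjusted p = 0.0642), Gng10, a G protein subunit (-1.10 to 0.60, adjusted p = 0.07) and Lyz2 (adjusted p = 0.07). At 6 h they were Ftl1, ferritin light chain (-1.17 in rat 4101 to 0.13 in rat 7270, adjusted p = 0.0882), Ypel3 (-0.87 to 0.60, adjusted p = 0.0882) and Marchf2 (adjusted p = 0.0894). The difference in variation between times was not tested.

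Markers of every white blood cell list held genes that varied between rats. Of all named genes 20.3% passed, with a median SD of 0.08. Of 14 neutrophil markers 8 passed (median SD 0.25), of 6 B cell markers 4 (0.23) and of 14 T cell markers 7 (0.11). Of 17 natural killer and cytotoxic markers 8 passed (0.21) and of 18 monocyte and macrophage markers 7 (0.14). From the list of dendritic cell and MHC class II markers 3 of 7 passed (0.10). Lists of 6 to 18 genes give coarse shares.

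Among neutrophil genes, Fcnb, a ficolin of granules, had an SD of 0.53 (F = 35.1) and ran from -1.002 in rat 3482 to -0.09 in rat 7558 at 3 h, from -0.98 in rat 9709 to 0.21 in rat 7270 at 6 h, and from -1.46 in rat 3565 to 0.68 in rat 7067 at 24 h. S100a9 had an SD of 0.47 (F = 49.2, adjusted p = 3.13e-07) and Anxa1, an anti-inflammatory annexin that glucocorticoids raise, 0.40. Both were lowest at 3 h in rat 3482 (-0.94 and -0.9992) and highest at 24 h in rat 7067 (0.72 and 0.47). Averaged over the 14 genes, relative to the mean of each time, the neutrophil list stood at 0.41 in rat 7067 and 0.20 in rat 8691, and at -0.30 in rat 3482 and -0.27 in rat 3565.

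Lymphoid genes had extremes in partly other rats. Spib, a B cell transcription factor (SD 0.34, adjusted p = 0.000306), was highest in rat 6370 at 3 h (0.46), in rat 6749 at 6 h (0.45) and in rat 7067 at 24 h (0.57), and Fcmr, the IgM Fc receptor (SD 0.27), was highest in the same 3 rats. The B cell list averaged 0.39 in rat 7067, 0.32 in rat 6370 and 0.265 in rat 6749, against -0.24 in rat 5554, and Ms4a1 (CD20) and Cd37 in it did not pass (SD 0.15 and 0.05). Cd2, a T cell adhesion receptor (SD 0.41), reached -1.23 in rat 3565. Ccl5 and Gzma, products of cytotoxic cells (SD 0.35 and 0.31), were lowest at 3 h in rat 3482 and highest there in rat 6370 (0.51 and 0.50), while at 6 h Ccl5 spanned only -0.21 to -0.01. Klrg1 of the same list was also lowest at 3 h in rat 3482 (-0.70) but highest in rat 7558 (0.26).

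Of 9 platelet markers 3 passed (median SD 0.07), against 20.3% of all named genes with a median SD of 0.08, so the list as a whole was not far from that background. Pf4, platelet factor 4 (SD 0.30, adjusted p = 0.000297), was lowest in rats 7558 (-0.61), 7270 (-0.54) and 8002 (-0.52) of the 3 times and highest in rats 3482 (0.32), 4101 (0.41) and 3565 (0.21). Of 29 erythroid markers 12 passed (median SD 0.12), and they did not move one way. Bpgm, which makes the haemoglobin effector 2,3-bisphosphoglycerate (SD 0.54), fell to -1.49 in rat 3482, -1.26 in rat 4101 and -1.24 in rat 3565, whereas Ahsp, the chaperone of alpha globin (SD 0.25), stood at 0.36, 0.34 and 0.34 in the same rats and at -0.43 in rat 7067.

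Markers of tissues other than blood passed in 7 of 23 liver-secreted, 3 of 12 exocrine pancreas, 2 of 10 skeletal muscle, 1 of 6 epidermal, 4 of 10 adipocyte and vessel and 1 of 9 lung genes, shares that lie on both sides of the 20.3% of all named genes, for example Tf (transferrin, SD 0.33) and Napsa (a protease of lung, SD 0.46). The means of these 6 lists were not repeated well by the 2 arrays of a rat, with correlations between dye orientations over 18 rats from -0.32 to 0.38. For the neutrophil, B cell, T cell and monocyte lists they were 0.88, 0.87, 0.80 and 0.77. Eosinophil, basophil and mast cell markers (2 of 8 passed) gave -0.02. The part of blood cell proportions in the results was not tested.

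**Figure D3:**
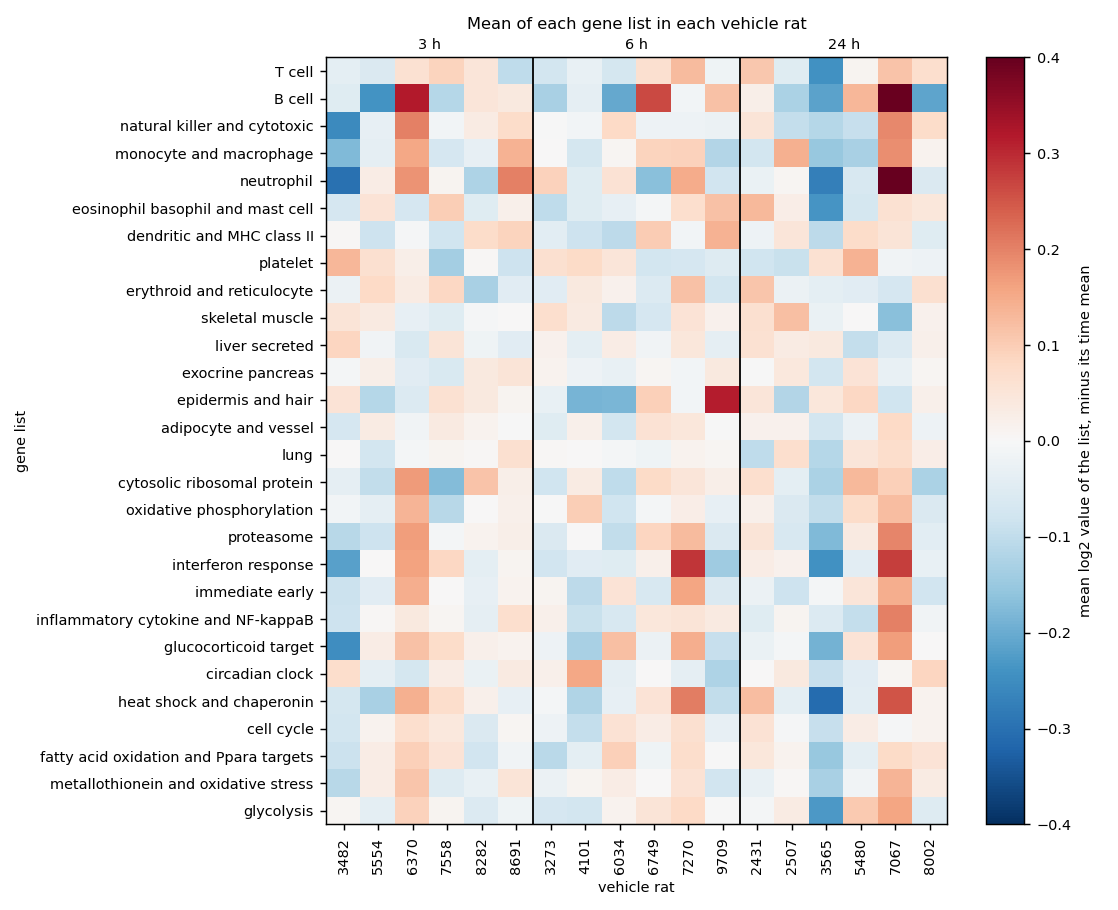
Rows are gene lists, columns the 18 vehicle rats by time, and colour is the mean log2 value of a list's members minus the mean of its time (red higher, blue lower). Rat 7067 at 24 h is high and rat 3565 low in the neutrophil list (0.41 and -0.27) and in the interferon list (0.28 and -0.24), and rat 3482 at 3 h is low in both (-0.30 and -0.22).

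The ribosomal and mitochondrial lists had the highest shares of the 28 lists. Of 46 cytosolic ribosomal protein genes 38 passed (82.6%, median SD 0.17) and of 50 oxidative phosphorylation genes 34 (68%, 0.16). Not all members of a list moved the same way. The median correlation between 2 members over 18 rats was 0.30 in the ribosomal and 0.15 in the oxidative phosphorylation list. Of the 38 ribosomal genes that passed, 8, 1, 9 and 1 fell into groups 1, 2, 3 and 4 described further on. The others lay in none of these 4 groups. As single examples, Rpl4 (SD 0.62) was lowest in rats 3482 (-1.69), 3273 (-1.60) and 3565 (-1.53), whereas Rpl39 (SD 0.49) was highest in these rats (1.13, 1.05 and 0.93). Cox7a2, a cytochrome oxidase subunit (SD 0.38), behaved as Rpl39 did at 3 h and 24 h, with 0.75 in rat 3482 and 0.58 in rat 3565, and was highest in rat 4101 at 6 h (0.85). Ndufa9 of complex I (SD 0.40) was lowest in rat 3565.

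Stress and signalling lists held smaller shares, to be read against 20.3% of all named genes, and the last 4 of the following lay near it. The counts were 16 of 30 for metallothionein and oxidative stress, 12 of 29 for the proteasome, 8 of 20 for glycolysis, 8 of 22 for fatty acid oxidation, 7 of 18 for glucocorticoid targets, 6 of 25 for immediate early genes, 6 of 26 for inflammatory cytokine and NF-kappaB genes, 5 of 21 for heat shock and 7 of 27 for the cell cycle. Of 10 circadian clock genes 1 passed, Bhlhe40 (SD 0.17). Il1b, the cytokine interleukin 1 beta (SD 0.47), ran at 3 h from -1.25 in rat 3482 to 0.56 in rat 6370, and at 24 h from -0.54 in rat 3565 to 0.63 in rat 7067. Cebpd, a transcription factor that glucocorticoids and cytokines raise (SD 0.55), ran from -1.41 in rat 3482 to 0.35 in rat 6370 at 3 h, and from -0.95 in rat 3565 to 1.07 in rat 7067 at 24 h.

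Of 28 interferon-response genes 10 passed (35.7%, median SD 0.18). The list mean repeated between dye orientations with r = 0.90, the highest r of the 28 lists with at least 5 members. By rank correlation it was 0.79, below the 0.88 of the neutrophil and the 0.83 of the B cell list. Interferon-stimulated genes are known to be switched on through a promoter element, the interferon-stimulated response element, whose core is GAAA, a gap of 2 bases and GAAA again. That core, searched on both strands in the 300 bases from 250 before to 50 after each gene start, was in 4.12% of 27457 promoters of the rat genome (RefSeq, GRCr8) and in 2.97% of 7133 tested named genes with a promoter. In the named genes that varied between rats it was in 60 of 1437 with a promoter (4.2%), and a link of the core to variation was not tested. Among interferon list members with a promoter it was in 7 of 8 that passed and 8 of 15 that did not. Of the 7, Irf7, Ifit3, Psmb8, Isg20 and Oas1b also fell into group 1, a group of genes that varied together across rats and is described further on. The promoters of the 4 of these with the largest SD are shown, and that of Oas1b is not. Capitals mark the core or its reverse complement.
Irf7, GRCr8 chr1:205799974-205800273, minus strand: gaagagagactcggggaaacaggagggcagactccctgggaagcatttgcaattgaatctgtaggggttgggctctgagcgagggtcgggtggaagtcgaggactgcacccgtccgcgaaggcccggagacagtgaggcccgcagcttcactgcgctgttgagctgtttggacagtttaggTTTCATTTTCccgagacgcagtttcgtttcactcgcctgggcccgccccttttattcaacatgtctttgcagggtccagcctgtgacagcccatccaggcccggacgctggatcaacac
Ifit3, GRCr8 chr1:241527076-241527375, plus strand: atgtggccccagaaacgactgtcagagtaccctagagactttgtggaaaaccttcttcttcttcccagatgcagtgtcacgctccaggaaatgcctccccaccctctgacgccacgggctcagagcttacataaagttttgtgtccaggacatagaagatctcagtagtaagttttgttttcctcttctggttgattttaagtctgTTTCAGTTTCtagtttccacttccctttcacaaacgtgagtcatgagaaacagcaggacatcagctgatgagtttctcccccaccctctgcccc
Psmb8, GRCr8 chr20:4656982-4657281, minus strand: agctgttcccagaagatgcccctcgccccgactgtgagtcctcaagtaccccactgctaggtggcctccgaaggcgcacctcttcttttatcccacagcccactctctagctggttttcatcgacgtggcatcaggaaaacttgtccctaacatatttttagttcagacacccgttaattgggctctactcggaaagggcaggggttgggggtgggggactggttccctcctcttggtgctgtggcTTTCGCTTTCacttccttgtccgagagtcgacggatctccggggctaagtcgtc
Isg20, GRCr8 chr1:142239809-142240108, plus strand: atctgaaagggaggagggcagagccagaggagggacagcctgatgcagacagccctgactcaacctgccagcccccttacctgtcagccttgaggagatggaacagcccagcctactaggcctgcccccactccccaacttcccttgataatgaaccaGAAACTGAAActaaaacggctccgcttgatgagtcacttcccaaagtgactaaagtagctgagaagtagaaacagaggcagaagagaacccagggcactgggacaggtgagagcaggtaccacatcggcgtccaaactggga
The sites start at 69, 44, 4 and 92 bases before the gene start as annotated, and a match describes letters and not binding.

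Irf7, the master regulator of interferon induction (SD 0.53, F = 38.3, adjusted p = 6.19e-07), ran from -1.25 in rat 3482 to 0.09 in rat 7558 at 3 h, from -1.19 in rat 9709 to 0.37 in rat 7270 at 6 h, and from -0.91 in rat 3565 to 0.59 in rat 2431 at 24 h. Ifit3, an inhibitor of viral translation (SD 0.55, F = 44.1), was lowest in the same 3 rats (-1.26, -0.83 and -0.80) and highest in rats 6370 (0.44), 7270 (0.63) and 7067 (0.86). Psmb8, an immunoproteasome subunit (SD 0.43), reached 0.68 in rat 7067, against -1.08 in rat 3565. The interferon list averaged 0.28 in rats 7270 and 7067 and -0.24 in rat 3565.

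The means of some lists varied together across rats. The correlations that follow are over 18 rats, after the mean of each time was removed, from list means without shared genes, and in parentheses between the Cy5 arrays of one list and the Cy3 arrays of the other, which share no array. Neutrophil and monocyte means correlated at 0.76 (0.73), neutrophil and natural killer means at 0.76 (0.67), neutrophil and interferon means at 0.80 (0.75), and B cell and ribosomal means at 0.85 (0.70). Neutrophil and B cell means correlated at 0.39 (0.34), and at -0.19 without the 2 rats farthest out on the B cell mean. The platelet mean ran against the interferon mean at -0.47 (-0.40) and the monocyte mean at -0.48 (-0.39). Over all 378 pairs of the 28 lists the median was 0.27 (0.17), and 264 pairs (269) lay above 0, so a positive value was common among lists, which share the rats, the pools and the arrays. A list mean also covers members that hardly varied together. The median correlation between 2 members was 0.06 in the neutrophil, -0.004 in the monocyte, 0.08 in the natural killer, 0.06 in the T cell, 0.58 in the B cell and 0.26 in the interferon list.

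The 1758 named genes that passed were grouped by how they varied across the 18 rats, by average linkage at a correlation of 0.5. This gave 51 groups, of which 4 held at least 100 genes and together 1287. Group 1 held 600 genes led by Marchf2, Akr1b1, Ybx1 and Actr3, with Lyz2, Ltb, Rpl4, Fcnb, Irf7, Ifit3, Cebpd and Cd2 also in it. Its mean was low in rats 3482 (-0.36), 3273 (-0.24), 4101 (-0.26) and 3565 (-0.49) and highest in rats 7558 (0.18), 7270 (0.21) and 7067 (0.22). Group 2 held 268 genes led by Cox7a2, Sec61g (an ER translocon subunit) and Pf4, with Ahsp, Bnip3l and Rps29. It ran opposite to group 1 (r = -0.94), with 0.25 in rat 3565, 0.21 in rat 4101 and -0.18 in rat 7067.

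Group 3 held 228 genes led by G0s2, C5ar1 (the receptor of complement fragment C5a), Clec4a3 and Nfe2l2, with the lymphocyte genes Spib, Fcmr, Cd5 and Zap70 also in it. It was high in rats 6370 (0.39), 7067 (0.37) and 5480 (0.24), and correlated with group 1 at 0.51. Group 4 held 191 genes led by Irf2bpl, Fxyd7, C13h2orf76 and Faxc. It was high in rats 2431 (0.41), 7270 (0.25) and 2507 (0.20), against -0.40 in rat 3565 and -0.23 in rat 5480. Group 4 correlated at 0.61 with group 1 and at 0.03 with group 3.

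Values of exactly 0 on the arrays, treated here as missing, made up 3.20 to 13.1% in the low rats of group 1. In its high rats they made up 9.89 to 12.9%. The ranges overlapped, but most arrays of the low rats lay below all arrays of the high rats. The part of this difference in group 1 was not tested. In rats 3482, 3273, 4101 and 3565 the shares were 13.1 and 6.52%, 6.00 and 9.78%, 4.91 and 3.20%, and 11.1 and 9.13% of the Cy5 and Cy3 array. In rats 7558, 7270 and 7067 they were 10.6 and 9.89%, 11.7 and 11.7%, and 11.7 and 12.9%. The 2 arrays of rat 3482 were of different designs, both arrays of rat 3273 lacked no block of features, and those of rats 4101 and 3565 lacked a block of 500. With array design as a covariate 2515 features varied, 2472 of them among the 2981, and 1655 varied over the 13 rats with both arrays of the shorter design. RNA quality and blood cell counts were not used here, and their part in the groups was not tested.

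**Figure D4:**
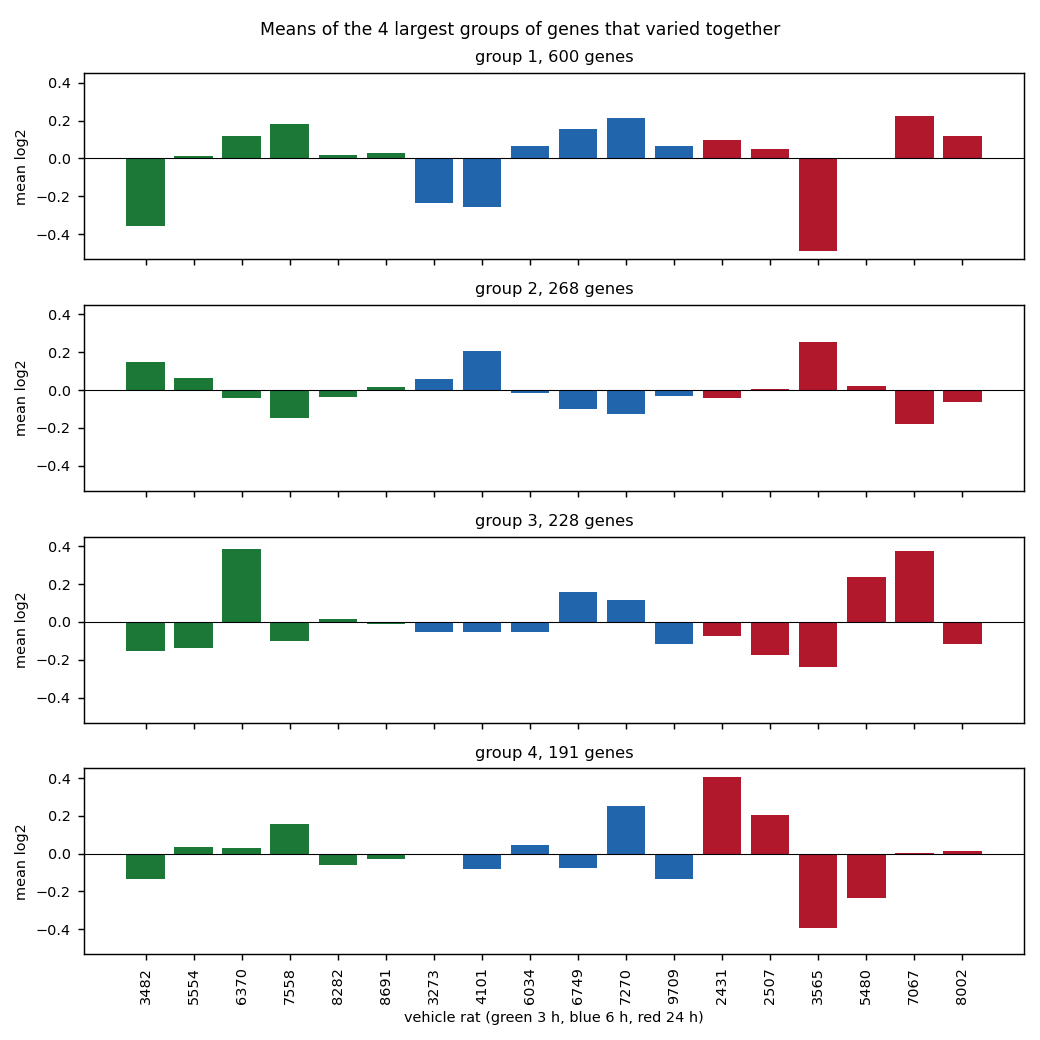
Bars are the mean log2 value of the genes of a group, minus the mean of the time, in each of 18 vehicle rats (green 3 h, blue 6 h, red 24 h). Group 1 is low and group 2 high in rats 3482, 4101 and 3565, group 3 peaks in rats 6370 (0.39) and 7067 (0.37), and group 4 in rat 2431 (0.41).

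The median correlation between 2 genes of a group was 0.69, 0.73, 0.64 and 0.73 in groups 1 to 4, which the grouping itself fixes. Without rat 3565 it was 0.58, 0.67, 0.64 and 0.69. The partners of single genes given next were the highest and lowest correlations among 7979 named genes with 18 rats, so their closeness comes with the choice, and 16 of the 36 partners had not passed themselves. Marchf2 correlated with Cdc25b, a cell cycle phosphatase, at 0.98 (0.94 between dye orientations), and with Oaz1, Exosc5 and Napa at 0.97 to 0.98. Its strongest opposites were Mkln1 at -0.96 and Rpl39 at -0.95, though Mkln1 itself did not pass (SD 0.08).

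Fxyd7 correlated with Hoxb2 at 0.99 (0.91) and C13h2orf76 with Sox15 at 0.99 (0.91). Both ran against Mkln1, at -0.92 and -0.93. Fxyd7 further ran with Ecm1, Phf12 and Slc4a2 at 0.98 to 0.99 and against Rbl2 at -0.93. C13h2orf76 further ran with Hoxb2, Gtf3c5 and Fxyd7 at 0.98 to 0.99 and against Ube2q1 at -0.93. Irf2bpl ran with Cldn14 at 0.96 (0.94), with Phlda1, Prss42 and Sall3 at 0.95 to 0.96, and against Defb22 at -0.88 and Sh3d21 at -0.87, neither of which passed. Rbp7 had no partner past 0.78: Gosr2, Odam, Rnf181 and Pstpip1 correlated at 0.73 to 0.76, and Rcl1 and Rpl32 at -0.78, of which Rpl32 alone passed (adjusted p = 0.0226). For Ssh3 the partners rested on rat 6034, and none of the 6 passed. Aoah correlated at 0.93 over 17 rats, at 0.64 without rat 6034 and at 0.46 between dye orientations. Vezf1, Slbp and Rgs4 stood at 0.84 to 0.87 with rat 6034 and at 0.33 to 0.54 without it, and Traf3ip2 and Smarce1 at -0.74 and -0.75 with it and at 0.0025 and 0.30 without.

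The 18 rats at each dose of acetaminophen give the same measure in animals that the choice of these genes did not use, with the same pools shared. Taking off the mean of the time removed the mean effect of the dose only. Any uneven response of single rats to acetaminophen stays in the spread at 150, 1500 and 2000 mg/kg, and its part was not tested. Of 14682 features tested at all 4 doses, 2971 varied at 0 mg/kg, and 1749 of them (58.9%) also varied at 150, 2385 (80.3%) at 1500 and 2354 (79.2%) at 2000 mg/kg. Of these 14682 features 20.2, 16.7, 30.9 and 34.0% varied at 0, 150, 1500 and 2000 mg/kg. Of the features tested at each dose by itself the shares were 19.4, 16.4, 30.2 and 33.6%. Of the 20 genes with the largest SD, 14 passed at 150, 16 at 1500 and 15 at 2000 mg/kg. Marchf2 had SDs of 0.87, 0.80, 0.84 and 0.72 at the 4 doses, Lyz2 0.63, 0.55, 0.67 and 0.64, and Irf2bpl 0.84, 0.78, 0.88 and 0.93. The 4 genes that passed at no other dose were Ssh3 with 0.82, 0, 0.14 and 0.14, Akr1b1 with 0.70, 0.17, 0.29 and 0, Polr2b with 0.68, 0.13, 0 and 0.30, and Clca4l with 0.62, 0, 0.27 and 0.26.

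Genes grouped in vehicle rats also varied together at the other doses. In group 3 the median correlation was 0.64, 0.74, 0.73 and 0.72 at 0, 150, 1500 and 2000 mg/kg, and in group 4 0.73, 0.65, 0.72 and 0.69. In group 2 it was 0.73, 0.70, 0.65 and 0.58 and in group 1 0.69, 0.56, 0.46 and 0.39. Over all pairs of the 1758 genes it lay between 0.04 and 0.09. Any uneven response of single rats to acetaminophen also enters the correlations at 150, 1500 and 2000 mg/kg. Differences of these correlations between doses were not tested.

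**Figure D5:**
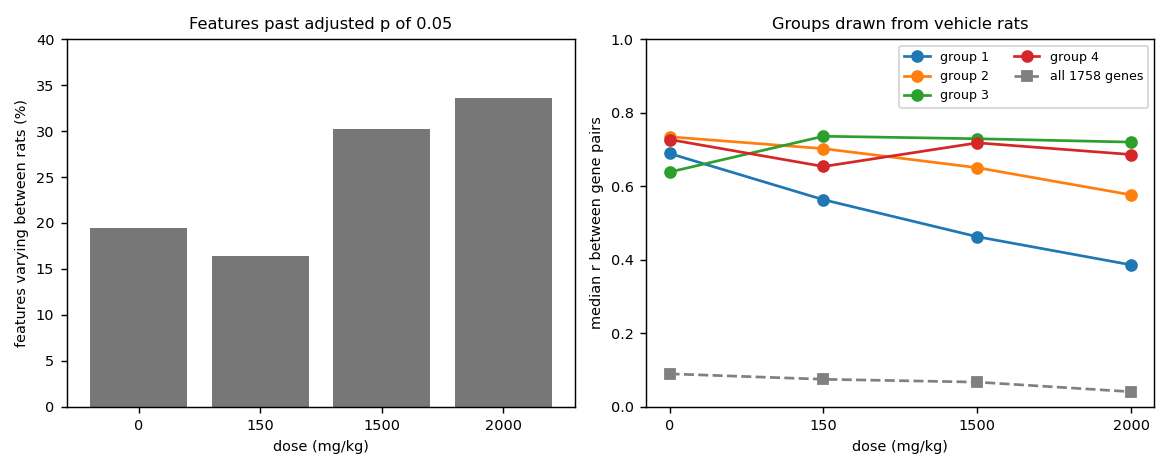
Left, the share of the features tested at a dose that varied between its 18 rats (percent, vertical axis), 19.4, 16.4, 30.2 and 33.6% at 0, 150, 1500 and 2000 mg/kg. Right, the median correlation between gene pairs of each group defined in vehicle rats, by dose; the 4 groups stay above all 1758 genes (0.04 to 0.09, grey).

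The mean of the 6 vehicle rats of a time was also set against the pool. With limma's moderated test 20 features differed at 3 h, of which 1 was higher (0.00651%) and 19 lower (0.124%), 23 at 6 h (2 higher, 0.013%, and 21 lower, 0.137%) and 54 at 24 h (18 higher, 0.117%, and 36 lower, 0.234%). Higher and lower would change places if the ratio ran the other way. All rats of a time were set against the same pool. The p-values therefore cover the spread between rats and not the making of the pool. A fit of all 72 rats gave 118 at 6 h and 176 at 24 h, and the rats with both arrays of the shorter design gave 0 at 3 h and 8 at 6 h. Nfyb, a subunit of the CCAAT-binding factor, was lower in all 18 rats, with means of -2.05, -1.78 and -1.79 at 3, 6 and 24 h (adjusted p = 0.000939, 0.00171 and 0.000872). St6gal1, a sialyltransferase, had means of -0.80, -1.26 and -1.56 and was lower in 6 of 6 rats at each time. Zbtb44 (-0.85, -1.22 and -0.98), a zinc finger gene, and Hipk2 (-0.82, -1.09 and -1.31), a kinase of stress signalling, passed at each time as well.

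Septin7 at 3 h (-0.98, a filament-forming GTPase) and Gnpda1 at 6 and 24 h (-0.82 and -0.99, of amino sugar metabolism) completed the lowest. The higher named genes were Col2a1 at 6 h (0.20) and, at 24 h, Slc7a5, an amino acid transporter (0.72), Wdr46 (0.49), Hexim1 (0.45), Folr1 (0.39) and Max (0.33). Of 75 features that differed from the pool at any time, 14 did so at 2 or more times. Of the 75, 9 also varied between rats, against 19.4% of all 15366 features. The test against the pool divides by the spread of the rat means, so widely varying features pass it less easily. Counts without rats 5554, 8282 or 8691 at 3 h were 9, 7 and 5. At 6 h they were 12, 10, 13 and 9 without rats 3273, 6034, 6749 or 9709. At 24 h they were 33, 24, 28 and 115 without rats 2431, 2507, 8002 or 3565.

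The side of the pool on which the most variable genes stood was not tested, and it differed among genes and times. The mean of the 6 rats' linear ratios was near 1 over all features (medians 1.005, 1.011 and 1.006 at 3, 6 and 24 h), and over the features that varied between rats it was 0.989, 0.994 and 0.998. For the 20 most variable named genes its median was 0.82, 0.84 and 1.20 at 3, 6 and 24 h. Marchf2 had 0.67, 0.63 and 1.16, Irf2bpl 0.69, 0.68 and 1.96, Fxyd7 0.80, 0.82 and 1.96, and C13h2orf76 0.82, 0.80 and 1.595. Rbp7 stood above 1 at each time with 1.60, 1.10 and 1.06, and Ssh3 with 1.22, 2.11 and 1.06. These are the authors' array ratios, and how the arrays compress or stretch a true ratio was not tested.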

How the data were processed

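Blood RNA of 18 vehicle rats was measured on 36 arrays, 2 per rat with dyes exchanged. The values are those the authors deposited as 1 table, read as log10 ratios of Cy5 over Cy3; log base, centring, direction, image processing and normalization were not given in the sources used here. Dose and time came from the deposited key (mg/kg and h; 19 numbers there lack zeros at one end or both). Exact zeros (2.85 to 17.0% per array) were treated as missing, and 500 features absent on 91 of 144 arrays were left out, leaving 21575; probes of 1 symbol were averaged per gene. Values became log2 of rat over pool.

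Variation between rats within a time was tested on features with both arrays in at least 4 of 6 rats, as an F of rat means over the spread between a rat's arrays, shrunk with limma 3.58.1 (R 4.3.3), Benjamini-Hochberg adjusted over 15366 features at 0.05. The 2 arrays of a rat share its blood sample, so its collection belongs to the spread between rats, and the number of arrays limits the precision. Rat means were set against 0 (the pool) with limma. Python 3.11.15 made the tables. Scripts were tested on simulated data. Named genes were the 20 with the largest between-rat SD past the threshold, 6 per time, or 3 where none passed, up to 3 per list of 5 or more members, and the 5 highest and lowest against the pool; for the first 6, the 4 highest and 2 lowest correlations. The members and lists were chosen with earlier results of these data known. Plasma cell markers (4 measured) formed no list.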

Additional observations from a re-analysis of the deposited data

Results flagged for a closer look

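In 11 of 156 sets of 6 rats examined, 1 rat stood apart from the other rats of its time, by a gap large against the whole range. The single genes among these sets were picked for a large spread over the same rats, and the groups were drawn from them. The 11 can therefore not be set against a rate given by chance. Rats recur in these sets because genes varied together. Rat 6034 at 6 h had a log2 ratio of 3.08 for Ssh3, where the others lay between -0.85 and 0.27, and 0.0782 for the natural killer list mean, where the others lay between -0.02 and -0.0025. Rat 3565 at 24 h had -1.71 for Akr1b1, -1.71 for Actr3, -1.53 for Rpl4 and -0.49 for the mean of the group of 600 genes led by Marchf2. Rat 3482 at 3 h had -1.79 for Birc3, -0.36 for the mean of the same group and -0.25 for the glucocorticoid target list mean. Rat 6370 at 3 h had 0.39 for the mean of the 228 genes led by G0s2, where the others reached 0.02. Rat 7067 at 24 h had 0.20 for the inflammatory cytokine and NF-kappaB list mean, where the others reached 0.01.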

How the results depend on the processing

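The count of features that varied over the 3 times lay between 2138 (without rat 3565) and 3216 (without rat 5480) when 1 rat was left out, was 1624 at an adjusted p under 0.01 and 1655 over the 13 rats with both arrays of the shorter design, an alternative added after seeing the data. At 24 h it lay between 0 and 794 when 1 rat was left out, and was 1143 without shrinkage, 0 with robust shrinkage and a trend, and 15 at 0.01. At 3 h it was 0 to 0 without any 1 rat, 55 with all 6 rats complete and 6 without shrinkage, and at 6 h 0 to 0 without any 1 rat and 24 with arrays scaled. Against the pool, counts without 1 rat were 5 to 22 at 3 h, 9 to 34 at 6 h and 24 to 115 at 24 h. A fit of all 72 rats gave 118 at 6 h and 176 at 24 h, and the rats of the shorter design 0 at 3 h and 8 at 6 h. The cause of these shifts was not tested, apart from the fewer rats or the stricter threshold that some use. Of the 116 counts, 7 as reported, 81 alternatives stayed within 1.5 times and 28 did not. Of 1100 values for the SD or correlation of single genes, 56 as reported, 988 alternatives stayed close, 54 moved and 2 changed sign, the correlations of Ssh3 with Traf3ip2 and Smarce1, which ran from -0.8525 to 0.0025 and from -0.8159 to 0.30 when 1 rat was left out, with the upper ends without rat 6034. No paired analysis was possible because each rat number occurs at 1 time only.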
